A study of Mus musculus with 12 samples.

Results

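Regulatory T cells (Treg cells), the CD4 T cells that restrain immune responses, were compared with and without the transcription factor gene Batf after 48 h of stimulation in culture. The comparison took 6 of the 12 RNA-seq libraries of the series: 3 from KO mice (Foxp3Cre Batf fl/fl) and 3 from WT mice. All cells were Treg cells sorted from C57BL/6 mice aged 7 weeks, kept for 48 h on plates coated with anti-CD3 and anti-CD28 at 5 µg/ml, in medium that held 200 U/ml of IL-2. Antibody to CD3 drives the T cell receptor, antibody to CD28 gives the costimulatory signal, and IL-2 is the growth factor on which Treg cells depend. The other 6 libraries, from cells of the same genotypes without stimulation, entered the fit and served for a comparison between states. In the KO mice Cre is made from the Foxp3 gene, so deletion is directed to cells that express Foxp3. The labels do not state Cre for the WT mice, so that an effect of Cre and the loss of Batf cannot be told apart. The labels also do not tie replicate libraries to separate mice. The p-values here set a difference against the spread between libraries of a group, which need not be the spread between mice.

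BATF belongs to the AP-1 family, the bZIP factors that bind DNA as dimers. It pairs with JUN proteins, and the pair often binds next to IRF4 or IRF8 at composite DNA elements. In T cells it is known for its role in the Th17 lineage, which makes IL-17, and in the maturation of Treg cells of non-lymphoid tissues, which carry receptors such as CCR8, KLRG1 and the IL-33 receptor.

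Between 27340975 and 32055383 reads were assigned to genes in the KO libraries and between 26153778 and 28586953 in the WT libraries. Of all genes, 9651 had at least 1 RPKM (reads per kilobase of exon, scaled to the reads assigned in the library) in 3 or more of the 6 libraries and were tested. The first principal component of the 6 libraries held 67.2% of the variance and placed the KO libraries between -16.9 and -15.9 and the WT libraries between 11.1 and 21.7. KO libraries lay closer to each other than WT libraries did. Transcripts of the Y chromosome (Ddx3y, Eif2s3y, Kdm5d and Uty) were present in WT libraries 1 and 2, while the 3 KO libraries and WT library 3 held Xist instead. Sex was therefore partly tied to genotype, and the text gives named calls that are lost without the libraries with Y-linked transcripts; that fit leaves WT library 3 alone on the WT side and assumes that it varies like the other groups. The 7 Treg marker genes, Foxp3 among them, were present at summed levels of 896 to 995 RPKM in KO and 1220 to 1260 RPKM in WT. Markers of other cells were low: the B cell list summed to 4.03 to 8.58 RPKM in KO and 3.24 to 5.0 in WT, the CD8 T cell list to 3.62 to 4.9 in KO and 4.19 to 5.84 in WT, the NK cell list to 1.77 to 1.89 in KO and 0.432 to 0.753 in WT, and the myeloid list to 4.87 to 8.1 in KO and 4.21 to 5.4 in WT. Of the 18 genes of the myeloid list, C1qa, C1qb, Siglech and Clec9a were at 0 in both genotypes. In that list 1 gene reached 1 RPKM in any KO library and 2 genes did in any WT library. The only gene of the NK cell list to reach 1 RPKM was Eomes, in KO, whose rise is given below. The part of such cells in the results was not tested. In bulk RNA, fewer cells of a type and less RNA per cell cannot be told apart.

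Many genes differed between KO and WT stimulated Treg cells, most of them by a small amount. With a limma adjusted p under 0.05, 856 genes were higher in KO (8.87% of those tested) and 1055 were lower (10.9%). The median change was 0.42 among the higher and -0.44 among the lower genes on the log2 scale, and 533 and 632 of them moved by under 0.5. A change of at least 1 was seen for 72 higher genes (0.746%) and 114 lower genes (1.18%). In either direction 19.8% of all genes tested were called. The 3 KO and 3 WT libraries did not overlap in 4130 genes (42.8%), called or not. The median over all genes tested was -0.0028. The numbers depended on single libraries. The count of higher genes was 551, 516 and 427 without KO library 1, 2 or 3, and 461 and 437 without WT library 2 or 3; that of lower genes was 635 and 606 without KO library 2 or 3, and 665 and 595 without WT library 2 or 3.

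**Figure D1:**
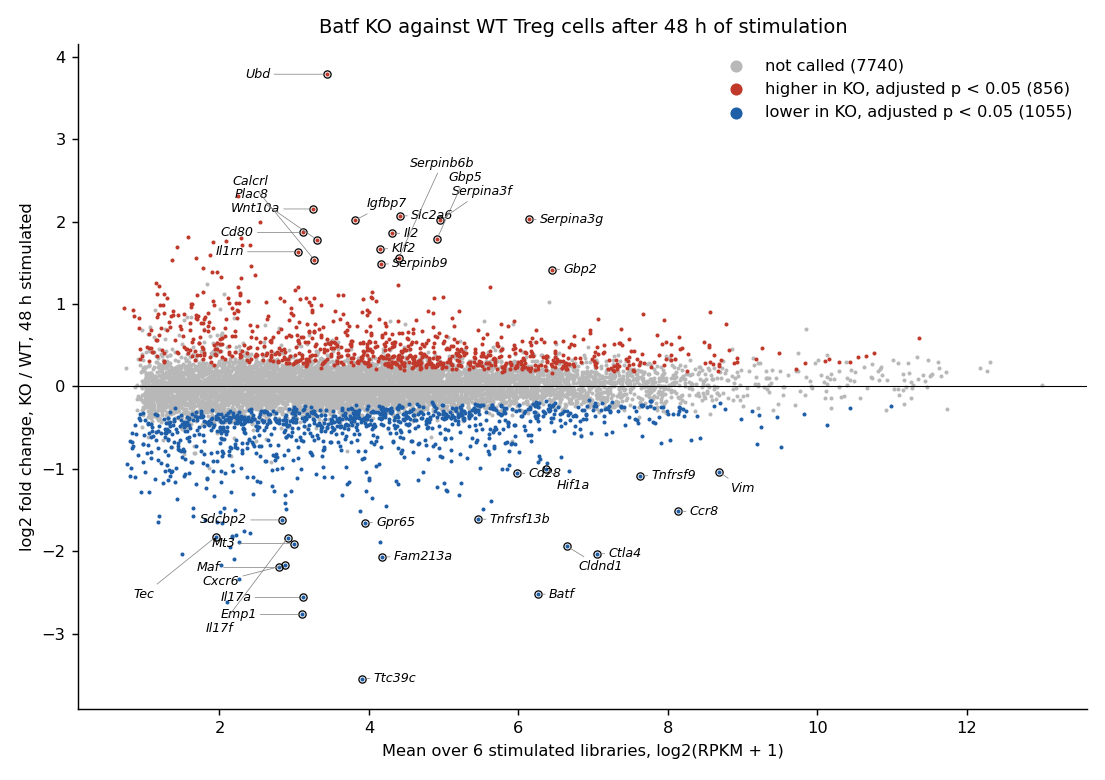
Log2 fold change of KO over WT after 48 h of stimulation against the mean of the 6 libraries for 9651 genes, with genes called at an adjusted p under 0.05 in red (856 higher in KO) and blue (1055 lower in KO). Circled genes are named in the text; Ubd stands at 3.79 and Ttc39c at -3.55.

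Batf itself (chromosome 12, 85686720 to 85709087, plus strand, mm10) had 26.5, 21.2 and 18 RPKM in the KO libraries, against 134, 125 and 128 RPKM in the WT libraries. The KO level was 17% of the WT level (log2 fold change -2.52, SE 0.17, limma adjusted p = 6.19e-07). Which exons the floxed allele loses is not stated in the labels, and any exons that remain add to the KO level.

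Other genes of the AP-1 and IRF families moved in both directions, and 47.1% of the tested list were called, against 19.8% of all genes. Of 17 tested members of this list, 6 rose and 2 fell, Batf being 1 of the 2, with a median of 0.18; 3 rose without the libraries with Y-linked transcripts. Batf3, a close relative of Batf, had 9.46, 3.29 and 7.32 RPKM in KO, against 1.61, 0.978 and 1.03 RPKM in WT. Its lowest KO library was still above every WT library (log2 fold change 1.72, SE 0.30, adjusted p = 0.00153). Atf3, a stress-induced bZIP factor, had 25.4, 18.9 and 19.1 RPKM in KO and 9.37, 10.1 and 8.55 RPKM in WT (1.09, SE 0.12, adjusted p = 3.3e-05). Fosl2, which encodes the AP-1 subunit FRA2, went the other way, with 2.81, 2.38 and 2.59 RPKM in KO and 6.97, 6.50 and 7.63 RPKM in WT (-1.16, SE 0.11, adjusted p = 1.13e-05). Of the dimer partners, Jund rose (0.52, adjusted p = 0.00503) and Jun rose (0.49, adjusted p = 0.000936, or 0.0505 without the libraries with Y-linked transcripts), whereas Junb did not pass, at 279, 250 and 244 RPKM in KO and 266, 273 and 229 RPKM in WT. Irf4, the partner factor, had 181, 184 and 181 RPKM in KO and 128, 118 and 137 RPKM in WT (0.51, SE 0.10, adjusted p = 0.00323, or 0.106 without the libraries with Y-linked transcripts). Irf8 did not pass (0.20, adjusted p = 0.155).

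Treg lineage genes were expressed in both genotypes, and most calls among them were falls. All cells had been sorted as Treg cells, so the presence of these genes does not measure whether the lineage was kept. Of 29 tested lineage and core genes, 10 fell and 3 rose, with a median of -0.17 (44.8% called, 19.8% of all genes). Foxp3, which defines the lineage, had 28.9, 27.2 and 26.4 RPKM in KO and 32.8, 31.9 and 37.1 RPKM in WT (-0.29, SE 0.09, adjusted p = 0.0337). The 2 groups did not overlap, but the call was lost in 7 of 15 alternative fits, with adjusted p up to 0.147 when WT library 3 was left out and 0.0566 without the libraries with Y-linked transcripts. Il2ra, the high-affinity IL-2 receptor chain, fell by 0.36 (adjusted p = 0.00861, or 0.0511 without KO library 3). Larger falls were those of Ikzf2, which encodes Helios, with 10.9, 8.76 and 8.06 RPKM in KO and 19.0, 19.5 and 21.5 RPKM in WT (-1.04, SE 0.12), and of Itgb8, the integrin chain that activates latent TGF-beta, with 4.49, 3.26 and 3.6 RPKM in KO and 8.35, 7.91 and 9.24 RPKM in WT (-1.0, SE 0.11). Tgfb1 fell by 0.44 (adjusted p = 0.000634). Lrrc32, which encodes the TGF-beta carrier GARP, rose by 0.49 (adjusted p = 0.00109), and Nrp1, a surface receptor of thymus-derived Treg cells, rose by 0.47 (adjusted p = 0.00946, or 0.0617 when Y-linked transcripts entered the model and 0.216 without their libraries). Fewer of these genes were called lower without KO library 3 (5), WT library 3 (6) or the libraries with Y-linked transcripts (6, with 1 higher).

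Genes of effector and tissue Treg cells were lower, with 23 of 33 tested members falling and 2 rising, and a median of -0.72. Over all genes tested 10.9% fell. Klrg1 encodes an inhibitory lectin-like receptor and had 0.259, 0.107 and 0.183 RPKM in KO, against 8.38, 6.05 and 4.69 RPKM in WT (-2.61, SE 0.31, adjusted p = 5.96e-05). Il1rl1, the IL-33 receptor, had 0.666, 0.283 and 0.444 RPKM in KO and 4.08, 5.58 and 7.33 RPKM in WT (-2.17, SE 0.34, adjusted p = 0.000712). Il18r1, the IL-18 receptor chain, had 1.04, 1.27 and 1.17 RPKM in KO and 4.57, 4.61 and 4.08 RPKM in WT (-1.33, SE 0.10). In each of these 3 genes every KO library was below every WT library, while the groups did not overlap in 42.8% of all genes tested. Maf, a transcription factor linked to IL-10 and IL-17 production, had 1.5, 1.65 and 1.28 RPKM in KO and 11.2, 8.26 and 11.9 RPKM in WT (-2.20, SE 0.13, adjusted p = 2.81e-07). Gata3 (-0.86), Prdm1 (-0.72), Id2 (-0.80) and Rora (-0.99), further transcription factors of effector Treg cells, fell as well. Penk, the enkephalin precursor, fell by 1.00 (adjusted p = 0.00327). Among genes of the list that did not pass was Tigit, an inhibitory receptor, with 104, 84.1 and 82.9 RPKM in KO and 138, 121 and 149 RPKM in WT (-0.59, adjusted p = 0.134). The 2 rises, those of Pparg (0.82, or an adjusted p of 0.0547 without the libraries with Y-linked transcripts) and of the triglyceride synthesis enzyme Dgat2 (0.88), stood in this list because the factor and the enzyme mark fat-tissue Treg cells.

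Costimulatory and inhibitory receptors were split, with 7 of 25 lower and 5 higher (48.0% called, 19.8% of all genes, median -0.06), or 3 higher without WT library 2. Ctla4 had 47.0, 55.4 and 50.5 RPKM in KO and 190, 251 and 198 RPKM in WT, or 24% of the WT level (-2.03, SE 0.15, adjusted p = 9.47e-07). CTLA-4 binds CD80 and CD86 and removes them from antigen-presenting cells. Cd28, which encodes the activating receptor for the same ligands, had 35.9, 42.7 and 41.1 RPKM in KO and 76.4, 74.4 and 103 RPKM in WT (-1.06, SE 0.12, adjusted p = 5.71e-05). Icos, the third receptor gene of this chromosome 1 cluster (60746388 to 61000321 from the start of Cd28 to the end of Icos, mm10), had 34.1, 39.1 and 39.2 RPKM in KO and 65.5, 58.9 and 62.9 RPKM in WT (-0.72, SE 0.13, adjusted p = 0.0022). The ligand genes went the other way. Cd80 had 12.0, 12.1 and 13.7 RPKM in KO and 2.77, 3.56 and 2 RPKM in WT (1.87, SE 0.27, adjusted p = 0.00037). Cd86 had 5.65, 3.76 and 3.83 RPKM in KO and 0.708, 1.40 and 1.10 RPKM in WT (1.38, SE 0.17, adjusted p = 7.27e-05). Cd80 and Cd86 are also made by B cells and dendritic cells, whose summed marker levels are given above, and the part of those cells was not tested. The receptor genes of the TNF family Tnfrsf9 (4-1BB) and Tnfrsf13b (TACI, a receptor for BAFF and APRIL) fell by 1.08 and 1.61; Tnfrsf9 had 149, 115 and 115 RPKM in KO and 268, 268 and 265 RPKM in WT. Tnfrsf8 (CD30) fell by 1.04 (adjusted p = 0.00573, or 0.134 without the libraries with Y-linked transcripts). Cd200r1, an inhibitory receptor for CD200, had 1.36, 0.928 and 0.643 RPKM in KO and 5.12, 5.82 and 7.03 RPKM in WT (-1.83, SE 0.15). Tnfrsf18 (GITR), Tnfrsf4 (OX40) and Pdcd1 (PD-1) did not pass, at -0.14, -0.13 and 0.09. Cd5, an inhibitory co-receptor that tracks receptor signalling, rose by 0.54 (adjusted p = 7.87e-05).

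**Figure D2:**
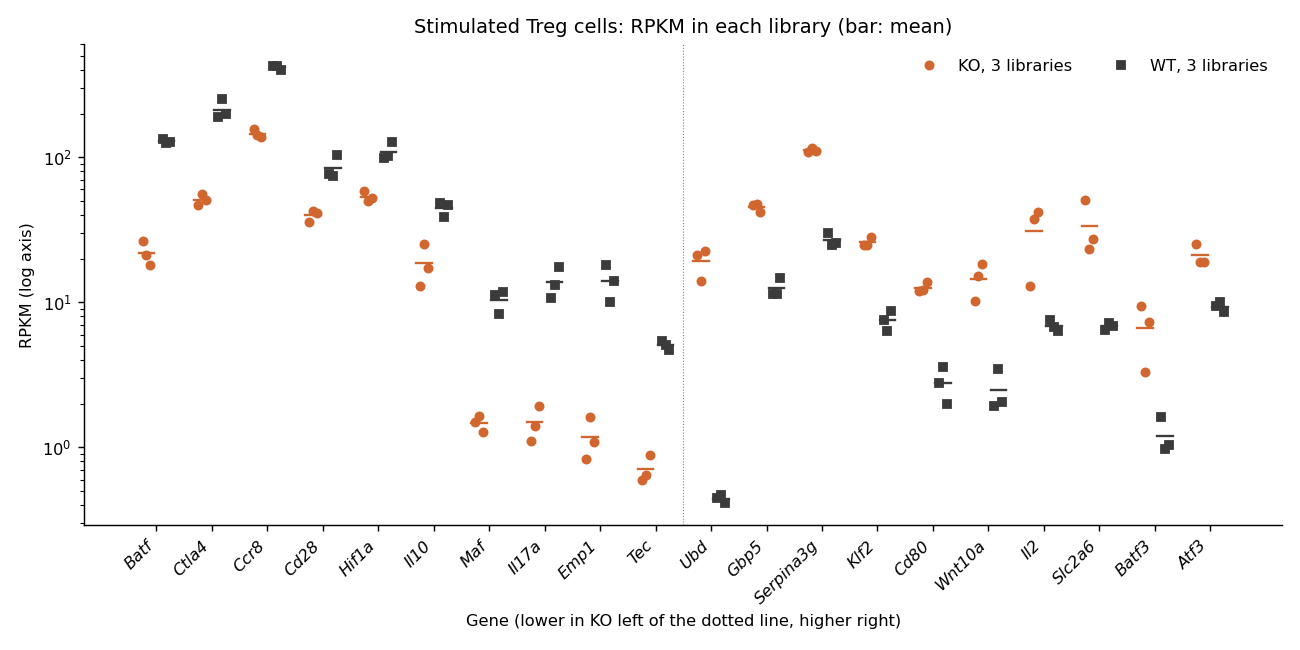
RPKM on a log axis in each of the 3 KO and 3 WT libraries for 20 genes, with bars at the group means. In all 20 genes the KO libraries lie on 1 side of the WT libraries. The rule for the largest rises and falls required this of part of them, and it held for 42.8% of all genes tested. Il2 and Batf3 are the widest among the KO libraries.

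The Th17-type list had 7 of 10 tested genes lower and 0 higher, with a median of -0.98 (70.0% called, 19.8% of all genes). Il17a (chromosome 1, 20730905 to 20734496) had 1.11, 1.41 and 1.94 RPKM in KO and 10.7, 13.2 and 17.5 RPKM in WT (-2.56, SE 0.15, adjusted p = 2.81e-07). Its neighbour Il17f had 1.44, 3.17 and 2.36 RPKM in KO and 8.47, 10.1 and 13.7 RPKM in WT (-1.84, SE 0.18). Ahr, the ligand-activated factor of IL-17-producing cells, had 1.46, 1.52 and 1.29 RPKM in KO and 4.04, 3.38 and 3.74 RPKM in WT (-0.96, SE 0.12). Stat3 was at -0.22 (adjusted p = 0.0362), a call lost in 9 of 15 alternatives, with adjusted p from 0.0507 under median-ratio rescaling to 0.153 without the libraries with Y-linked transcripts.

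Among cytokines and secreted ligands, 12 of 41 fell and 13 rose, with a median of 0.15 (61.0% called, 19.8% of all genes). Il10, the suppressive cytokine, had 13, 25.3 and 17.3 RPKM in KO and 48.6, 38.6 and 46.6 RPKM in WT (-1.26, SE 0.20, adjusted p = 0.000631). Il2, which Treg cells usually take up rather than make, had 12.9, 37.7 and 41.8 RPKM in KO and 7.52, 6.74 and 6.32 RPKM in WT (1.86, SE 0.30, adjusted p = 0.000731). KO library 1 was well below the other KO libraries but above each WT library. Ltb, the lymphotoxin beta chain, had 524, 445 and 510 RPKM in KO and 306, 250 and 235 RPKM in WT (0.91, SE 0.12). The gp130 cytokine Lif (1.06), the growth factor gene Csf2 (1.01) and the death ligand Tnfsf10 (0.90) rose too. Wnt10a, a WNT ligand, had 10.3, 15.1 and 18.3 RPKM in KO and 1.93, 3.46 and 2.05 RPKM in WT (2.15, SE 0.23). Igfbp7, a secreted binding protein, had 18.8, 19.7 and 26.3 RPKM in KO and 3.94, 4.17 and 5.59 RPKM in WT (2.02, SE 0.28). Ifng was uneven, at 76.8, 227 and 136 RPKM in KO and 82.0, 113 and 94.2 RPKM in WT, and did not pass (0.48, adjusted p = 0.222). Fewer genes of the list were called higher without KO library 3 (8).

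Of 33 cytokine receptor and SOCS genes 8 fell and 9 rose (51.5% called, 19.8% of all genes, median 0.08). Il7r, the IL-7 receptor, had 2.69, 1.08 and 1.14 RPKM in KO and 4.67, 4.56 and 6.58 RPKM in WT (-1.29, SE 0.20, adjusted p = 0.000572). Ifngr1, a chain of the interferon-gamma receptor, had 28.0, 24.5 and 25 RPKM in KO and 39.2, 39.2 and 42.7 RPKM in WT (-0.62, SE 0.07, adjusted p = 5.23e-05). Socs1, an inhibitor of cytokine signalling, had 200, 155 and 154 RPKM in KO and 117, 92.7 and 79.3 RPKM in WT (0.82, SE 0.17, adjusted p = 0.00418). Il4ra rose by 0.63 (adjusted p = 0.000376). Only 4 of the list were called higher without the libraries with Y-linked transcripts.

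Homing receptors fell, and several integrin chains rose. Of 25 chemokine receptor, integrin and homing genes 10 fell and 6 rose (64.0% called, 19.8% of all genes, median -0.10). Ccr8 had 155, 142 and 139 RPKM in KO and 423, 427 and 402 RPKM in WT (-1.52, SE 0.10, adjusted p = 4.8e-07) and stayed well expressed in KO. Ccr7, the receptor for homing to lymph nodes, did not pass, at 217, 170 and 208 RPKM in KO and 180, 184 and 152 RPKM in WT. Cxcr6 had 1.55, 1.74 and 1.66 RPKM in KO and 13.4, 10.3 and 9.44 RPKM in WT (-2.17, SE 0.20). Gpr15, a homing receptor for the colon, had 0.246, 0.0567 and 0 RPKM in KO and 4.27, 2.44 and 3.96 RPKM in WT (-2.03, SE 0.22). Itgae, the CD103 integrin chain, fell by 2.09 (adjusted p = 0.0095, or 0.112 without the libraries with Y-linked transcripts). S1pr1, the exit receptor of lymphoid organs, fell by 0.78 (adjusted p = 0.000741). Itgb7 (0.42) and the LFA-1 chain Itgal (0.44) rose, the KO libraries of Itgal at 70.1, 76.4 and 74.4 RPKM and the WT libraries at 55.3, 52.3 and 54.4 RPKM. Without the libraries with Y-linked transcripts 6 genes of the list were lower and 2 higher.

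Interferon-linked genes were higher in KO. Of 17 tested guanylate-binding protein and IRG GTPase genes, interferon-inducible GTPases of cell-autonomous defence, 15 rose and 0 fell, with a median of 0.70; over all genes 8.87% rose. Ubd, an interferon-inducible ubiquitin-like protein counted with them, had 21.2, 14.1 and 22.7 RPKM in KO and 0.449, 0.469 and 0.411 RPKM in WT, a level 43.6-fold higher (3.79, SE 0.17, adjusted p = 2.17e-08). Gbp5 had 46.9, 47.6 and 42.2 RPKM in KO and 11.4, 11.5 and 14.8 RPKM in WT (1.79, SE 0.14). Gbp2 had 116, 123 and 139 RPKM in KO and 41.3, 41.0 and 59.0 RPKM in WT (1.42, SE 0.15). Genes of both clusters, on chromosome 3 (Gbp2, Gbp2b, Gbp3 and Gbp5) and on chromosome 5 (Gbp4, Gbp6, Gbp9 and Gbp10), were among those that rose, while Gbp7 on chromosome 3 did not pass (0.25, adjusted p = 0.307). The rises of Gbp3 and Gbp9 were lost without the libraries with Y-linked transcripts (adjusted p = 0.115 and 0.421), and that of Gbp9 in 6 other alternatives too (adjusted p from 0.0546 to 0.177). Irgm1 had 151, 147 and 153 RPKM in KO and 93.0, 92.4 and 101 RPKM in WT (0.65, SE 0.07, adjusted p = 2.36e-05), and Igtp had 303, 286 and 301 RPKM in KO and 207, 209 and 194 RPKM in WT (0.54, SE 0.06). Gbp2b resembles Gbp2 in sequence and Tgtp1, whose rise was also lost in that fit (adjusted p = 0.0902), resembles Tgtp2, and how reads common to such copies were divided is not stated. Without the libraries with Y-linked transcripts 10 of the list were called higher.

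The windows of 250 bases before the start of the GTPase genes were searched for 3 short motifs, and an interferon-type element matched in a larger share of them than of promoters at large. The interferon element was GAAA repeated after a gap of 2 bases, the other motifs were TTCNNNGAA, the spacing bound by STAT factors, and TGANTCA, the AP-1 element, and both strands were searched. The interferon element was found upstream of 10 of 12 GTPase genes with a RefSeq promoter (83.3%), of 239 of 7453 tested genes with one (3.21%) and of 2.98% of all 32851 promoters in the table. TTCNNNGAA stood upstream of 6 of the 12 (50%), against 7.3% of tested genes. The upstream bases below, from RefSeq (GRCm38.p6), are those of 4 GTPase genes that rose, with matches to these motifs in capitals: Gbp5 at chr3:142496684-142496910 and Gbp2 at chr3:142620541-142620633 on the plus strand, Igtp at chr11:58199491-58199551 on the plus strand, and Irgm1 at chr11:48871421-48871470 on the minus strand.
Gbp5: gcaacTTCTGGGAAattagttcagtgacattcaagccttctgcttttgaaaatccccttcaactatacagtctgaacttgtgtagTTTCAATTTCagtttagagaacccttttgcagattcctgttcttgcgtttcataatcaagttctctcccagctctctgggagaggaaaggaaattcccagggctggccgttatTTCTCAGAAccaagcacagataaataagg
Gbp2: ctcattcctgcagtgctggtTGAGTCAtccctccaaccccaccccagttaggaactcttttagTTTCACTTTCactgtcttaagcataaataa
Igtp: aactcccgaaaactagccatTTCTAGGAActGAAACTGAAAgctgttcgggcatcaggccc
Irgm1: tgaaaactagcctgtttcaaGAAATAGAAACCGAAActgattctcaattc
In Gbp5 the interferon element lies 165 bases before the start, and TTCNNNGAA matches lie 245 and 52 bases before it. Gbp2 has the interferon element at 59 and TGANTCA at 102 bases, Igtp has TTCNNNGAA at 45 and the interferon element at 34 bases, and the Irgm1 matches at 30 and 24 bases overlap by 4 bases. A match describes letters and is not a site of binding.

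The type I interferon list had 12 of 23 tested genes higher and 0 lower, with a median of 0.43 (52.2% called, 19.8% of all genes), while 20 of its 43 genes were below the filter or absent. Ifi203, a nuclear interferon-induced protein, had 7.41, 7.13 and 7.06 RPKM in KO and 2.34, 3.01 and 3.92 RPKM in WT (1.02, SE 0.13). Ifih1, the RNA sensor MDA5, had 2.97, 3.21 and 3.49 RPKM in KO and 1.32, 1.23 and 1.48 RPKM in WT (0.85, SE 0.09). Irf1, a transcription factor induced by interferon, had 60.7, 61.2 and 61.6 RPKM in KO and 44.0, 41.5 and 40.9 RPKM in WT (0.53, SE 0.07). It is counted in the MHC class I list below and not in this one. Isg15 and Ifit2, widely used markers of type I interferon, did not pass, at 0.62 (adjusted p = 0.0843) and -0.27. Without the libraries with Y-linked transcripts 7 of the list were higher.

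Genes that load peptides on MHC class I were among those higher, and the class I chain genes were split. Of 22 tested genes of the list, 12 rose, Irf1 among them, and 0 fell, with a median of 0.27 (54.5% called, 19.8% of all genes). The peptide transporter gene Tap1 had 290, 271 and 282 RPKM in KO and 201, 182 and 163 RPKM in WT (0.63, SE 0.08, adjusted p = 0.000113). Tap2 (0.55) and the immunoproteasome subunit gene Psmb9 (0.60), neighbours of Tap1 on chromosome 17, rose with it, as did the loading chaperone Tapbp (0.59). Of the class I chain genes, H2-T24 rose (0.54), H2-Q4 rose (0.41, adjusted p = 0.00457, or 0.0544 without the libraries with Y-linked transcripts), and H2-T23 was at 0.25 (adjusted p = 0.0474), a call lost in 10 alternatives with adjusted p up to 0.198 without WT library 3 and 0.0563 without the libraries with Y-linked transcripts. H2-K1 had 1243, 1117 and 1183 RPKM in KO and 1176, 1079 and 1075 RPKM in WT and did not pass (0.09), nor did H2-D1 (0.09), H2-T22, H2-M3 or the light chain gene B2m (-0.29, adjusted p = 0.0898). With KO library 3, WT library 2 or WT library 3 left out, 7 were called higher; with WT library 1 left out 13 were higher and 2 lower.

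**Figure D3:**
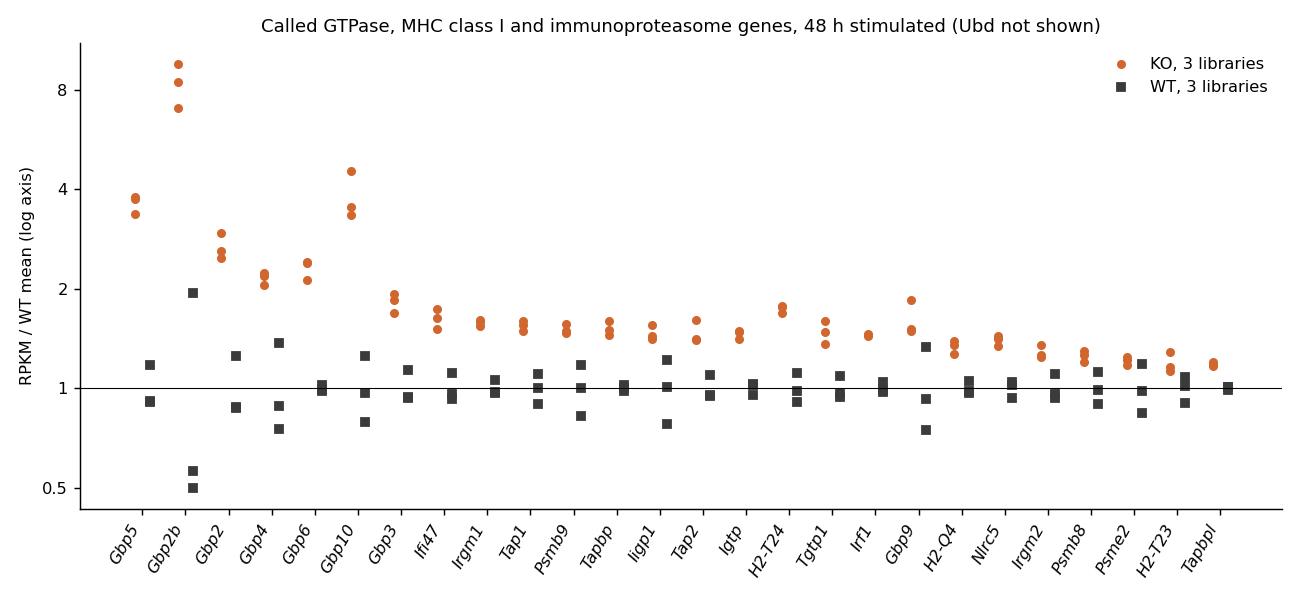
RPKM of each library over the WT mean, on a log axis, for the 14 GTPase genes and 12 genes of the MHC class I and immunoproteasome list, Irf1 among them, that were called higher in KO (Ubd is not shown). Gbp5 stands between 3.38 and 3.81 in the KO libraries.

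Serine protease inhibitors and granzymes split into groups that rose and fell, with 5 of 12 each (83.3% called, 19.8% of all genes). Fewer passed in either direction without the libraries with Y-linked transcripts. Serpina3g had 109, 116 and 110 RPKM in KO and 29.9, 24.9 and 25.5 RPKM in WT (2.03, SE 0.08, adjusted p = 1.24e-08), and Serpina3f had 38.1, 54.9 and 53.6 RPKM in KO and 10.9, 11.3 and 11.3 RPKM in WT (2.02, SE 0.14). Both genes start at the same base of chromosome 12 in the deposited table, and reads may be divided between them. Serpinb9, which inhibits granzyme B, had 38.4, 16.8 and 21.4 RPKM in KO and 5.37, 9.05 and 10.2 RPKM in WT, with KO library 1 the highest (1.49, adjusted p = 0.00128, or 0.0657 without the libraries with Y-linked transcripts). Gzmb, granzyme B itself, had 21.0, 22.4 and 25.4 RPKM in KO and 40.2, 45.5 and 45.4 RPKM in WT (-0.90, adjusted p = 0.00944, or 0.0872 without those libraries). Prf1, perforin, had 0.378, 0.855 and 2 RPKM in KO and 9.03, 5.84 and 4.73 RPKM in WT (-1.89, SE 0.25). Among Th1 and cytotoxic genes 9 of 20 fell and 3 rose (median -0.24); the factor gene Tbx21 was at -0.36 (adjusted p = 0.0278), a call lost in 9 alternatives (adjusted p up to 0.217 without the libraries with Y-linked transcripts), and Eomes rose by 0.83 (adjusted p = 0.0016), at 1.55, 1.55 and 1.17 RPKM in KO and 0.298, 0.513 and 0.264 RPKM in WT. Only 4 of these Th1 and cytotoxic genes were called lower without WT library 3 or without the libraries with Y-linked transcripts, and 5 without KO library 2.

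Few genes of T cell receptor signalling moved by much, with 5 higher and 5 lower of 35 (28.6% called, 19.8% of all genes; median -0.05). With 1 library left out, 3 were higher without WT library 3 and 8 lower without WT library 1, and 2 were higher without the libraries with Y-linked transcripts. Tec, a Tec-family kinase, had 0.596, 0.646 and 0.891 RPKM in KO and 5.40, 5.06 and 4.68 RPKM in WT (-1.82, SE 0.13, adjusted p = 7.43e-07). Themis, a signalling adaptor of the T cell receptor, had 0.728, 0.990 and 1.13 RPKM in KO and 2.70, 4.09 and 3.61 RPKM in WT (-1.19, SE 0.19). Cd2, an adhesion receptor, fell by 0.50, while Cd3d, a chain of the receptor complex, rose by 0.50 (adjusted p = 0.00231). Lck and Zap70, the kinases next to the receptor, did not pass, at 0.03 and 0.02. Of 32 genes that receptor signals induce, 9 fell and 9 rose (56.2% called). Nr4a1, Nr4a2 and Nr4a3, the orphan nuclear receptors induced early by receptor signals, fell together, Nr4a2 with 3.27, 3.08 and 4.26 RPKM in KO and 9.24, 9.12 and 11.4 RPKM in WT (-1.27, SE 0.15) and Nr4a3 by 0.69; Nr4a1, at -0.60, had an adjusted p of 0.00431, or 0.0615 without the libraries with Y-linked transcripts. Egr2 fell by 0.73 (adjusted p = 0.00243). In the other direction Dusp6, a phosphatase of ERK, rose by 0.92 and Bcl2l11, which encodes the death inducer BIM, had 4.5, 5.13 and 5.21 RPKM in KO and 1.87, 1.88 and 2.48 RPKM in WT (0.95, SE 0.11). Myc was at 0.34 (adjusted p = 0.0303), a call lost in 7 alternatives, with an adjusted p of 0.118 without KO library 3 and 0.211 without the libraries with Y-linked transcripts.

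Among naive and quiescence genes 9 of 25 fell and 3 rose (48.0% called, 19.8% of all genes, median 0.01). Klf2, a factor of T cell quiescence and recirculation, had 24.9, 24.9 and 28.2 RPKM in KO and 7.52, 6.34 and 8.69 RPKM in WT (1.67, SE 0.11, adjusted p = 6.1e-07). Klf6 went the other way, with 31.6, 23 and 27.0 RPKM in KO and 47.0, 51.2 and 52.2 RPKM in WT (-0.87, SE 0.11). Tcf7, a factor gene of naive T cells, did not pass, at 0.01. With 1 library left out, the 3 rises became 1 without KO library 2 or 3, WT library 2 or WT library 3; without the libraries with Y-linked transcripts 1 rose and 5 fell.

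The metabolic lists differed in how often their genes were called, against 19.8% of all genes. Glycolysis genes had 4 of 26 lower and 1 higher (19.2% called, median -0.07). Hif1a, the hypoxia factor that drives glycolysis in T cells, had 58.7, 49.8 and 52.4 RPKM in KO and 98.3, 102 and 127 RPKM in WT (-1.01, SE 0.10, adjusted p = 1.93e-05). Slc2a6, a member of the glucose transporter family, had 50.6, 23.5 and 27.1 RPKM in KO and 6.44, 7.19 and 6.89 RPKM in WT (2.07, SE 0.32, adjusted p = 0.000659). The main glucose transporter genes Slc2a1 (-0.09) and Slc2a3 (-0.13), Hk2 (-0.22) and Ldha (0.07) did not pass. Oxidative phosphorylation genes had 22 of 53 higher and 0 lower (41.5% called) with a median of 0.22, with the largest changes in Atp5e (0.80) and Ndufa2 (0.68), whose calls were lost in 6 alternatives each. Atp5j2, an ATP synthase subunit, had 278, 288 and 284 RPKM in KO and 238, 188 and 176 RPKM in WT (0.51, SE 0.11, adjusted p = 0.00481). The KO libraries of Atp5j2 were close together and the WT libraries spread, with WT library 1 nearest to KO. The count of 22 was not stable: it was 4, 6 and 3 without KO library 1, 2 or 3, 2 and 1 without WT library 2 or 3, and 36 with 2 lower without WT library 1. TCA cycle, pyruvate and glutamine genes had 3 of 31 lower and 1 higher (12.9% called, median 0.03), from 1 to 3 lower and 0 to 5 higher with 1 library left out; Gls2, a glutaminase, fell by 0.85 (adjusted p = 0.00114, or 0.0919 without the libraries with Y-linked transcripts). Fatty acid genes had 7 of 26 higher and 5 lower (46.2% called). The rises became 3 without KO library 1, WT library 2 or WT library 3 and 4 without KO library 2 or 3, the falls 3 without KO library 2, WT library 2 or WT library 3, and 3 rose and 1 fell without the libraries with Y-linked transcripts. Dgat1 and Dgat2, the enzymes that finish triglyceride synthesis, moved oppositely, Dgat1 with 14.6, 14.3 and 14.2 RPKM in KO and 25.4, 22.6 and 22.8 RPKM in WT (-0.68, SE 0.12) and Dgat2 with 20.7, 12.9 and 12.7 RPKM in KO and 7.95, 8.96 and 6.43 RPKM in WT (0.88, SE 0.17). Lipid and cholesterol synthesis had 5 of 33 higher and 0 lower (15.2% called), and amino acid transport and one-carbon genes 7 of 27 higher and 0 lower (25.9% called); these became 1 to 5 and 1 to 9 with 1 library left out.

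Cell cycle genes were called about as often as all genes, with 6 of 42 higher and 2 lower (19.0% called, against 19.8% of all genes; median 0.01), but 3 were higher without KO library 1, KO library 2 or WT library 3, and 4 without KO library 3 or WT library 2. Mki67 was at 5.96, 4.73 and 5.08 RPKM in KO and 5.47, 4.95 and 6.67 RPKM in WT (-0.09, adjusted p = 0.769). The inhibitor of cyclin-dependent kinases Cdkn1b had 12.0, 9.40 and 10.6 RPKM in KO and 16, 14.7 and 18.5 RPKM in WT (-0.58, SE 0.09, adjusted p = 0.000896), whereas Cdkn2c, another such inhibitor, had 26.6, 19.1 and 21.5 RPKM in KO and 14, 12.5 and 12.4 RPKM in WT (0.73, SE 0.14). The G1/S cyclin gene Ccne2 fell by 0.70 (adjusted p = 0.00861). Histone and DNA modification genes were also called about as often as all genes (19.0%, against 19.8%). Of 21 such genes 2 rose and 2 fell, or from 1 to 5 fell with 1 library left out. The rises were those of the de novo DNA methyltransferases Dnmt3a (0.51) and Dnmt3b (0.70), Dnmt3b with 6.43, 8.67 and 8.22 RPKM in KO and 4.13, 4.70 and 4.27 RPKM in WT.

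Adhesion, cytoskeleton and S100 genes were lower, with 12 of 22 falling and 2 rising (63.6% called, 19.8% of all genes, median -0.45). Emp1, a tetraspan membrane protein, had 0.834, 1.62 and 1.10 RPKM in KO and 18.1, 10.0 and 14.1 RPKM in WT (-2.77, SE 0.20, adjusted p = 9.02e-07). Vim, the intermediate filament vimentin, had 287, 276 and 243 RPKM in KO and 598, 542 and 519 RPKM in WT (-1.04, SE 0.08). S100a11, a calcium-binding protein, had 19.9, 16 and 14.7 RPKM in KO and 34.5, 38.9 and 49.8 RPKM in WT (-1.23, SE 0.14), and Tubb6, a tubulin, fell by 1.46. Cldnd1, a claudin-like protein, had 43.6, 37.9 and 40.0 RPKM in KO and 151, 155 and 169 RPKM in WT (-1.94, SE 0.09). Myo6, an unconventional myosin, rose by 1.35 (adjusted p = 0.000145). Without the libraries with Y-linked transcripts 7 of the list fell.

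The AP-1 element TGANTCA occurred upstream of 18.6% of the 86 genes that fell by at least 1 and have a promoter, of 18% of the 61 that rose by at least 1, and of 4.86% of tested genes. Both directions held it at a like share. The bases below, from RefSeq (GRCm38.p6), are upstream of genes of either direction, with TGANTCA in capitals: Emp1 at chr6:135362766-135362930 and S100a11 at chr3:93520340-93520484, both on the plus strand, Tnfrsf9 at chr4:150927964-150927998 and Il17a at chr1:20730655-20730687 on the plus strand, all of which fell, and Cd80 at chr16:38458871-38458917 on the plus strand, which rose.
Emp1: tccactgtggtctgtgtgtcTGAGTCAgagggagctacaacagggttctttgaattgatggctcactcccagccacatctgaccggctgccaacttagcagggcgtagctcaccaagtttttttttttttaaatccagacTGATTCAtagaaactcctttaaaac
S100a11: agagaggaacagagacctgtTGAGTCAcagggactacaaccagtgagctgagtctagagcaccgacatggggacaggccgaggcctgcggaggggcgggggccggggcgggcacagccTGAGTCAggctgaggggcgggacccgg
Tnfrsf9: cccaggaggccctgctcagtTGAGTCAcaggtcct
Il17a: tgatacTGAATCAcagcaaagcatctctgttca
Cd80: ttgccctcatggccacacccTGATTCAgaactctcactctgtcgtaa
The matches of Emp1 lie 145 and 25 bases before the start, those of S100a11 136 and 38 bases, that of Tnfrsf9 15 bases, that of Il17a 244 bases and that of Cd80 42 bases before it. Whether BATF binds at any of them was not measured here.

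Among the 15 largest falls and 15 largest rises were genes outside these groups. Ttc39c (chromosome 18) had 2.37, 1.07 and 0.902 RPKM in KO and 27.3, 26.4 and 26.3 RPKM in WT, or 5.43% of the WT level (-3.55, SE 0.18, adjusted p = 4.35e-08). Fam213a fell by 2.07, the metallothionein gene Mt3 by 1.91 and the syntenin gene Sdcbp2 by 1.62. Gpr65, a receptor that senses acidity, fell by 1.65, with 6.16, 7.41 and 5.65 RPKM in KO and 18.5, 25 and 23.5 RPKM in WT. Plac8 rose by 1.78 (adjusted p = 0.000345), with 14.7, 14.4 and 13.4 RPKM in KO and 5.11, 1.79 and 4.07 RPKM in WT. Rises that were lost without the libraries with Y-linked transcripts were those of Il1rn, the antagonist of the IL-1 receptor (1.63, adjusted p then 0.0594), Calcrl, a neuropeptide receptor chain (1.53, then 0.0806), and Serpinb6b (1.56, then 0.0782).

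**Figure D4:**
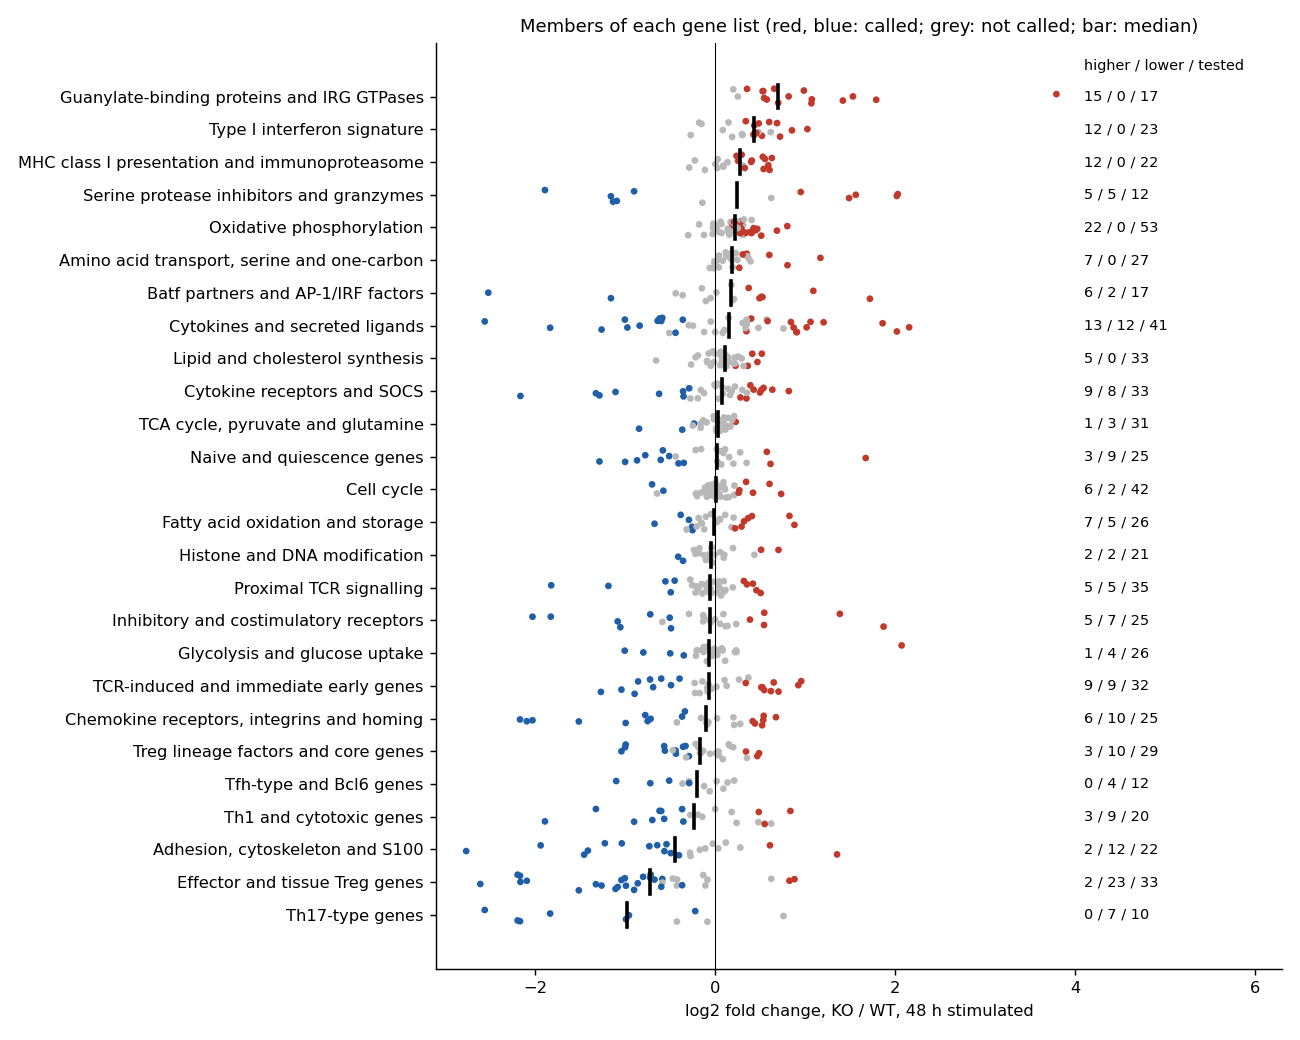
Log2 fold change of KO over WT after 48 h of stimulation for the tested members of 26 gene lists, ordered by median (black bar), with called genes in red (higher) and blue (lower) and the counts at the right. The GTPase list is at the top (median 0.70) and the Th17-type list at the bottom (median -0.98).

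The effect of Batf loss differed between stimulated and unstimulated cells for part of these genes, tested as the difference between the 2 effects in the fit of all 12 libraries. Many of the named genes were chosen by their effect with stimulation, a choice that favours larger effects in that state. Over all genes 462 differences were called (4.79%), and 31 without the libraries with Y-linked transcripts. Of the 856 genes higher after stimulation, 142 were also called higher without it (16.6%), and of the 1055 lower genes 227 were also called lower (21.5%); in unstimulated cells 9.38% of all genes were called. The effect on Ctla4 was -2.03 with and -0.01 without stimulation, where the KO libraries held 166, 121 and 121 RPKM and the WT libraries 130, 164 and 115 RPKM. Maf (-2.20 and -0.49), Emp1 (-2.77 and -0.48) and Serpina3g (2.03 and -0.01) also moved more with stimulation, and for these 4 genes the difference was called in all 15 alternatives run for it. Il17a, at -2.56 and -0.10, was at most 0.108 RPKM in any unstimulated library, and its difference was not called by limma-voom on reads (adjusted p = 0.672). The effect on Ttc39c (-3.55 and -2.84), Klrg1 (-2.61 and -2.34), Cd80 (1.87 and 1.81) and Wnt10a (2.15 and 1.68) was not called different between the states. Icos moved less with stimulation (-0.72, against -1.71 without it), a difference lost without the libraries with Y-linked transcripts (adjusted p = 0.257).

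**Figure D5:**
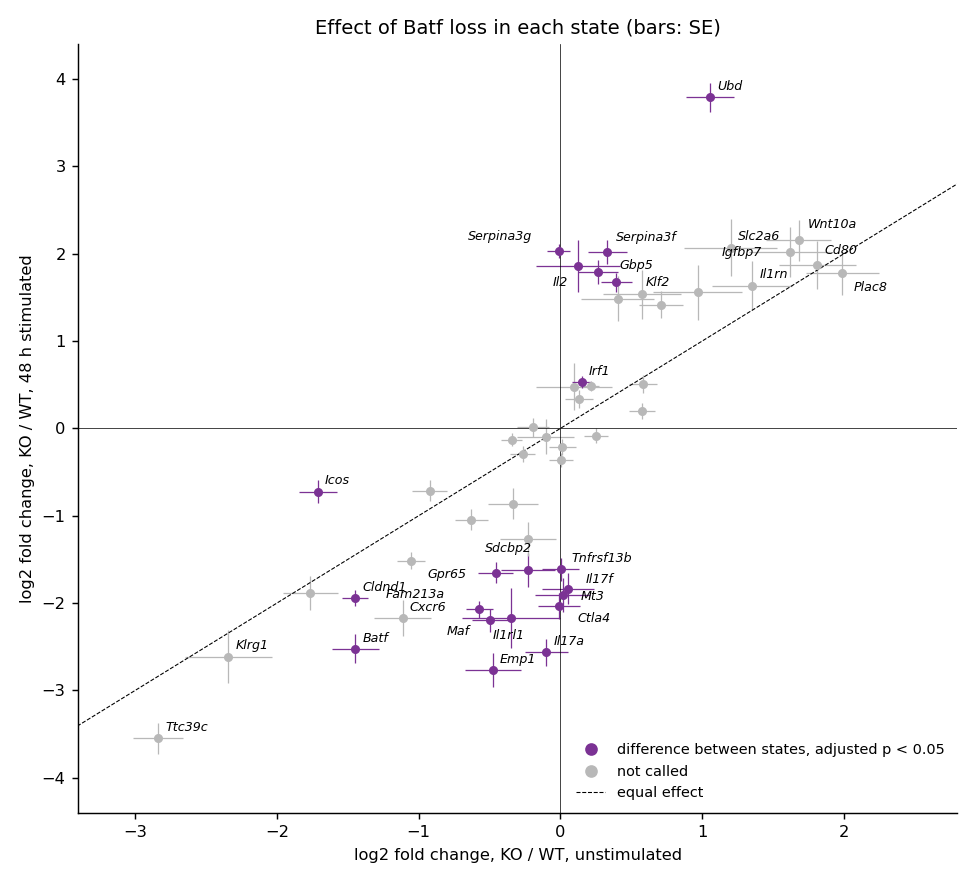
Log2 fold change of KO over WT after 48 h of stimulation (vertical) against that without stimulation (horizontal) for 52 genes taken by the rule for named genes (only part are labelled), with SE bars and a dashed line of equal effect. Purple genes, 21 in all, had a difference between states at an adjusted p under 0.05, against 4.79% of all genes tested. Part of the 52 were chosen for a large effect with stimulation. Ctla4 lies far below the line and Ubd far above it.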

How the data were processed

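RNA of sorted mouse Treg cells was sequenced in 12 libraries, 3 for each genotype and state, from 600 ng of RNA with a stranded kit that selects polyadenylated RNA, per the labels' protocols. The authors deposited 1 RPKM value per gene and library; FastQC, STAR, featureCounts, Subread and DESeq2 are named without versions in the submitters' processing notes, with mm10 as the build. How strand and multiply matching reads were handled at counting, and which annotation release served, are not stated in the labels. RPKM multiplied by length came out as whole reads (tolerance 0.01) for 100% of values. Of 24421 entries, 27 with a date in place of a symbol, between 0.185% and 0.284% of each library's reads, were left out. Reads of the 3 pairs of libraries in each stimulated group differed by more than counting error (chi-square per degree of freedom from 5.67 to 37.98).

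Genes with at least 1 RPKM in 3 of the 6 stimulated libraries were tested (9651). Values were taken as log2(RPKM + 1), which understates changes of low genes, and fitted with limma 3.58.1 in R 4.3.3 as 4 group means over 12 libraries (8 residual degrees of freedom, mean trend), with Benjamini-Hochberg adjustment over all genes and a threshold of 0.05. Genes with a call were named by this rule: Batf, the 15 largest rises and 15 largest falls with a mean of at least 5 RPKM and no overlap between groups, from each list at most 5 members, taken by lowest adjusted p, a set of genes always included, and further list members as examples; some of these genes are not reported here. The members and the gene lists were chosen with earlier results of these data known. Lists share members and are described by counts and medians, without tests. Alternatives were another pseudocount, other filters, median-ratio rescaling, the 6 libraries alone, the replicate number as a block and a term for Y-linked transcripts. Others were leaving out the libraries that hold such transcripts, limma-voom on reads worked back, and leaving out each of the 6 stimulated libraries in turn. No unstimulated library was left out singly. On simulated reads for 9685 genes, 22%, 82%, 98% and 100% of genes changed by 1.25, 1.5, 2 and 4-fold were recovered (50 each), with 11 calls among 9485 unchanged genes. KO and WT libraries were not paired by number in the main fit. Deviations of same-numbered KO and WT stimulated libraries correlated at 0.006, 0.028 and -0.049. Those of the other pairs lay between -0.046 and 0.03. Such values show no sign of pairing but cannot exclude a shared source, which the labels do not state.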

Additional observations from a re-analysis of the deposited data

Results flagged for a closer look

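For 21 of 52 genes taken by the rule for named genes the effect of Batf loss differed between stimulated and unstimulated cells. This was the test of the difference itself in limma, at an adjusted p under 0.05. Over all genes tested 4.79% differed, and part of the 52 were chosen for a large effect with stimulation. Each value here is the KO against WT effect with stimulation minus that without, on the log2 scale. The effect was more negative with stimulation for Batf (-1.08), Emp1 (-2.29), Il17a (-2.46), Maf (-1.70), Fam213a (-1.50), Ctla4 (-2.02), Cldnd1 (-0.49), Mt3 (-1.92), Il17f (-1.89), Gpr65 (-1.20), Sdcbp2 (-1.39), Tnfrsf13b (-1.61) and Il1rl1 (-1.82). It was more positive for Ubd (2.73), Serpina3g (2.04), Serpina3f (1.69), Il2 (1.74), Gbp5 (1.52), Klf2 (1.28) and Irf1 (0.38). Icos (0.99) differed the other way, since its fall was smaller with stimulation.

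Of these, 6 were called in all 15 alternatives run for them: Ctla4, Emp1, Fam213a, Maf, Serpina3f and Serpina3g. Without the libraries with Y-linked transcripts 8 were called, these and Il17a (adjusted p = 0.00942) and Ubd (adjusted p = 0.0365). By limma-voom on reads Il17a, Il17f, Il2, Mt3, Ubd and Cldnd1 were not called (adjusted p = 0.672, 0.241, 0.934, 0.28, 0.161 and 0.0506). Il17a, Il17f, Il2 and Mt3 were at or below 0.422 RPKM in every unstimulated library, and on the log2(RPKM + 1) scale such genes have little room to differ there. Groups of 3 libraries are too small for a test of single outlying libraries.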

How the results depend on the processing

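Leaving out 1 stimulated library at a time gave from 427 to 1197 genes higher and from 595 to 1284 lower in stimulated KO cells. Differences between states then ranged from 202 to 603. Without the libraries with Y-linked transcripts, where WT library 3 alone stands for stimulated WT, 31 differences between states were called. In that fit 665 genes were higher and 712 lower. The remaining alternatives kept each count within 1.5 times: from 697 to 1003 genes were higher and from 746 to 1193 lower. Median-ratio rescaling put 52.6% of calls on the higher side, against 44.8%, and moved the median of all genes from -0.0028 to 0.0266. With the replicate number as a block 739 genes were higher, 930 lower and 365 differed between states; it ended 8 calls among the 264 genes taken for naming. Of 216 calls among them, 127 were lost in no alternative that tested the gene, 101 of these being tested in all 15, and 29 were lost only without the libraries with Y-linked transcripts; no such call changed sign in any of them. The cause of these losses was not tested. Each of the 6 stimulated libraries correlated best with the unstimulated library of its own genotype and number (0.293, 0.183 and 0.119 in KO; 0.044, 0.103 and 0.026 in WT), a hint from the data of a shared source that the labels do not state. With genotype and number as a replicate block, an alternative chosen after seeing the data, 540 differences between states were called. The interaction was not fitted on the 6 stimulated libraries alone.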

Other observations

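Within the KO libraries, library 1 was the highest of the 3 for 6 of the 15 largest rises and 6 of the 15 largest falls, library 2 for 3 and 7, and library 3 for 6 and 2. KO library 1 stood apart in single genes: Slc2a6 had 50.6 RPKM there and 23.5 and 27.1 RPKM in libraries 2 and 3, Serpinb6b had 52.0 RPKM there and 16.6 and 25.2 RPKM, and Il2 had 12.9 RPKM there and 37.7 and 41.8 RPKM. Mpeg1, a pore-forming protein best known from macrophages, had 5.39, 2.92 and 3.78 RPKM in KO and 0.873, 0.938 and 0.678 RPKM in WT (log2 fold change 1.43, limma adjusted p = 0.000388), while Cd68, another macrophage marker, had 0.990, 0.997 and 0.625 RPKM in KO and 2.76, 2.73 and 3.25 RPKM in WT (-1.07, adjusted p = 0.000198). These were the 2 genes of the 18 in the myeloid list that passed the filter.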
